A study of Mus musculus with 13 samples.

Results

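Complement is an innate defence system made of plasma proteins, cell-surface regulators and receptors. C1q, assembled from the products of *C1qa*, *C1qb* and *C1qc*, binds antibody, microbes or cell debris and starts the classical pathway, in which C4 and C2 form an enzyme that cleaves C3. Factor B (*Cfb*) builds the corresponding enzyme of the alternative pathway, and the small fragments C3a and C5a released downstream act through the receptors encoded by *C3ar1* and *C5ar1*. In the brain, C1q is known as a product of microglia and other macrophages, C3 and C4 are made by glia and vascular cells, and the anaphylatoxin receptors are carried mainly by myeloid cells.

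These 9 genes (*C1qa*, *C1qb*, *C1qc*, *C2*, *C3*, *C4b*, *Cfb*, *C3ar1* and *C5ar1*) were taken by symbol from the 47643 genes counted in RNA of isolated mouse neurovasculature. They were chosen as complement components and receptors, with earlier results of these data known, and 8 of the 9 were among the 17285 genes tested. The counts come from 13 male CD1 mice aged 8 to 10 weeks: 4 of the sham-vehicle, 5 of the LPS-vehicle and 4 of the LPS-CPD-4645 group. Lipopolysaccharide (LPS) from *Salmonella enterica* serovar Typhimurium was injected intraperitoneally at 3 mg/kg at 0, 6 and 24 h in both LPS groups, and sham mice received PBS. CPD-4645 inhibits monoacylglycerol lipase (MAGL), the main hydrolase of the endocannabinoid 2-AG, and was given subcutaneously at 10 mg/kg, 30 min after every LPS dose per the labels and methods, though another passage of the study gives a longer delay. Vehicle groups received its solvent of DMSO, Cremophor and saline, and all mice were euthanized at 28 h, which was 4 h after the last LPS dose. Brains were not perfused, so blood cells held in the vessels were part of the material.

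Libraries held 7813559 (LPS-vehicle mouse 3) to 55133373 counts, and LPS-CPD-4645 mouse 1 was the next shallowest. Over the 22 pairs of replicates, the chi-square statistic per gene, which is 1 for counting error alone, was 9.82 to 61.1. Endothelial markers were present in every library (10 genes with a summed level of 343 to 755 CPM, counts relative to library size), but so were neuron markers (9 genes, 8297 to 11321 CPM), so the preparation was not made of vessel cells alone. In such bulk RNA, fewer cells of a type and less RNA per cell cannot be told apart. Below, CPM use the TMM-scaled total of a library, log2 fold changes carry their standard error (SE), and adjusted p values are from edgeR's quasi-likelihood test over all genes tested. A gene is said to have risen or fallen where the adjusted p was at most 0.05 and the change at least 2-fold.

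The members lie in 5 places of the genome (GRCm38, all on the minus strand). *C1qb* (136880129 to 136886187), *C1qc* (136889804 to 136893065) and *C1qa* (136895917 to 136898803) are neighbours within 18675 bases of chromosome 4 with no other annotated gene between them. *C4b* (34728380 to 34743882), *Cfb* (34856374 to 34862518) and *C2* (34862604 to 34898265) lie in the major histocompatibility complex on chromosome 17. *C3* is on the same chromosome (57203970 to 57228136), *C3ar1* is on chromosome 6 (122847138 to 122856161) and *C5ar1* on chromosome 7 (16246743 to 16259540). Of the other genes that lie from *C4b* to *C2*, 7 were tested, and 0 of them passed the threshold in any of the 3 comparisons by edgeR. RefSeq gives promoter sequence (GRCm38.p6) for *C1qb*, *C1qc*, *C3*, *C3ar1* and *C5ar1*, and the 250 bases before each start were searched on both strands for letters read by factors of myeloid and inflammatory genes. The core GAGGAA of PU.1, the myeloid lineage factor, was found before *C1qb* (first base 30 bases before the start) and, on the other strand, before *C1qc* (193 bases before the start), and it occurs in 23.3% of all 32851 promoter windows of that length. TTGCNNAA, a C/EBP site, was found before *C3* only (45 bases before the start; 9.6% of windows). The *C1qc* window also held an NF-kB site (41 bases before the RefSeq start, 7.3% of windows). The GENCODE start of *C1qc* lies 151 bases upstream of the RefSeq start, so this site is within the gene as GENCODE gives it. TTCNNNGAA (STAT, 7.0%) and GAAANNGAAA (interferon regulatory factors, 3.0%) were in none of the 5 windows, and no letters searched were in those of *C3ar1* and *C5ar1*. For *C5ar1* the GENCODE start lies 202 bases upstream of the RefSeq start, so most of its window is within the GENCODE gene. The sequences with the PU.1 and C/EBP letters are shown 5′ to 3′ with those letters in capitals: *C1qb* (chr4:136886201-136886450) and *C3* (chr17:57228137-57228386) up to the RefSeq start, and *C1qc* (chr4:136893066-136893164) only up to the GENCODE gene start, which lies 151 bases further upstream. A match of letters is a description of the sequence and shows no binding.
C1qb: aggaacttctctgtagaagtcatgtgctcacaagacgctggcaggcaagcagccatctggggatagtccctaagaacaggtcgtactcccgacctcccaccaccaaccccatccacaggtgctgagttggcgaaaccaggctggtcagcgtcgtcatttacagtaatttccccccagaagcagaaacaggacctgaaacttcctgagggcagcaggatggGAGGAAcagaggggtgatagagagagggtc
C1qc: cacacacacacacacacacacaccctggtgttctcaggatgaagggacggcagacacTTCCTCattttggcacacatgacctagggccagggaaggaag
C3: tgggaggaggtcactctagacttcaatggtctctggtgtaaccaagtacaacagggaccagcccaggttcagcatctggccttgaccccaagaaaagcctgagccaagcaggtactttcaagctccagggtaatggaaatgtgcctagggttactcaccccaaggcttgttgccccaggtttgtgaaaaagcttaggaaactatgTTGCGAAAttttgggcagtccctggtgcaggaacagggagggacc

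Comparing LPS-vehicle with sham-vehicle mice asks how the inflammatory challenge moved these genes. Of the 8 members tested, 7 rose and 0 fell, by edgeR, where 4.68% of all genes tested rose and 0.995% fell. Rises ran from 3.89-fold for *C1qc* to 22.2-fold for *C5ar1*, and *C2* stood just under the 2-fold line. For all 8, the groups were apart, with the lowest LPS-vehicle mouse over the highest sham-vehicle mouse, which held for 9.68% of all genes tested. The median log2 fold change was 2.46 over the 8 members and -0.00065 over all genes tested.

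**Figure D1:**
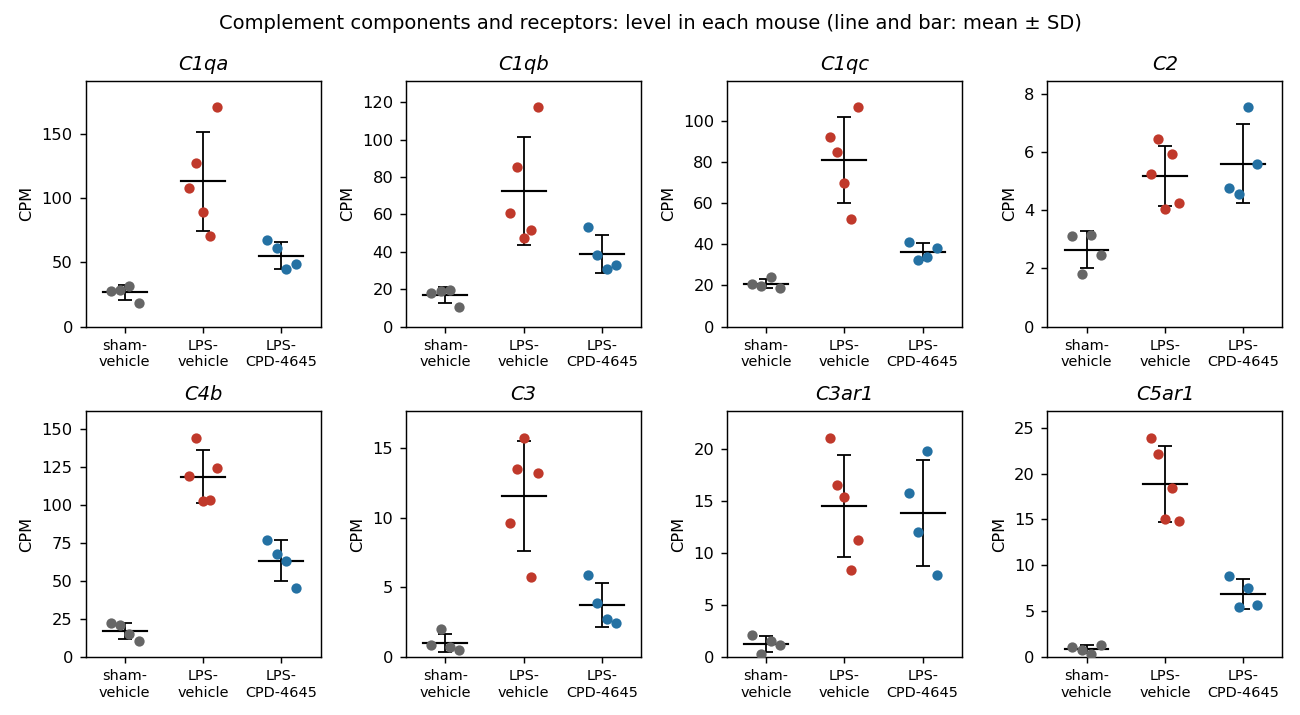
Level of each tested member in CPM (vertical axis, from 0) for every mouse, by group; lines and bars are means ± SD. *C5ar1*, *C3* and *C4b* are high after LPS and lower with CPD-4645, while *C3ar1* (means 14.5 and 13.9 CPM) and *C2* (5.17 and 5.60 CPM) stand at like levels in both LPS groups.

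Among the C1q chains, *C1qa* was at 27.6, 28.5, 31.7 and 18.7 CPM in the sham-vehicle mice and at 108, 128, 89.7, 70.8 and 171 CPM in the LPS-vehicle mice. Mouse 4 was the lowest sham-vehicle mouse and mouse 5 the highest LPS-vehicle mouse, and the groups did not overlap. *C1qa* rose by 2.09 (SE 0.22) on the log2 scale (adjusted p = 1.65e-06). *C1qb* was at 17.8, 18.9, 19.6 and 10.3 CPM in sham-vehicle mice and at 60.9, 85.5, 47.1, 51.8 and 117 CPM after LPS, and it rose by 2.13 (SE 0.25, adjusted p = 8.35e-06). Its highest mouse was again mouse 5 of the LPS-vehicle group. *C1qc* was at 20.6, 19.99, 24.2 and 18.8 CPM in sham-vehicle mice and at 92.1, 85.2, 69.8, 52.4 and 107 CPM after LPS, and it rose by 1.96 (SE 0.16, adjusted p = 1.28e-07). The rises of the 3 chains thus lay within the SE of *C1qb* of each other.

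Among the components of the C3-cleaving enzymes, *C4b* and *C3* rose and *C2* did not reach 2-fold. *C4b*, which encodes complement C4, was at 22.2, 20.6, 15.3 and 10.4 CPM in sham-vehicle mice and at 119, 144, 102, 103 and 124 CPM after LPS. The LPS-vehicle mice were close together (SD 17.3 around a mean of 119 CPM), and *C4b* rose by 2.78 (SE 0.20, adjusted p = 2.27e-08). *C3*, the central component on which all pathways converge, was at 0.827, 1.97, 0.677 and 0.494 CPM in sham-vehicle mice and at 9.58, 13.5, 15.8, 5.75 and 13.2 CPM after LPS. It rose by 3.52 (SE 0.40, adjusted p = 4.65e-06) from a low level, with 10 to 49 counts per sham-vehicle library. *C2*, the protease of the classical enzyme, was at 3.11, 1.81, 3.15 and 2.47 CPM in sham-vehicle mice and at 5.25, 6.44, 4.03, 5.91 and 4.23 CPM after LPS. Its log2 fold change was 0.98 (SE 0.23, adjusted p = 0.0054), and it passed the threshold with limma-voom (1.04) or without LPS-vehicle mouse 3 (1.05), LPS-vehicle mouse 5 (1.05), sham-vehicle mouse 1 (1.08) or sham-vehicle mouse 3 (1.08).

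*Cfb* had 20 counts in all, with 0 in 9 of the 13 libraries. The counts were 0 in the 4 sham-vehicle mice, 0, 1, 5, 11 and 0 in the LPS-vehicle mice and 3, 0, 0 and 0 in the LPS-CPD-4645 mice. These counts therefore cannot show whether *Cfb* changed. Of its 2751 exon bases, 2246 are shared with the read-through gene *Gm20547*, which had 0 counts in all libraries, and so are 1647 of the 2783 exon bases of *C2*. STAR assigns no read to a gene where it overlaps more than one, so most *Cfb* reads and many *C2* reads cannot appear in these counts, and 505 bases of *Cfb* and 1136 of *C2* remain outside *Gm20547*. The levels of both genes are therefore understated, and a few *C2* exon bases (141) also lie opposite *Zbtb12*. For *C4b*, 23.5% of the 75-base windows of its transcript, the read length, are identical in its neighbouring copy *C4a*, and reads from there map to both and were not counted.

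Both anaphylatoxin receptors rose after LPS. *C3ar1*, the C3a receptor, was at 2.05, 0.241, 1.47 and 1.14 CPM in sham-vehicle mice, with mouse 2 far below the rest (6 counts), and at 21.1, 16.6, 15.4, 8.32 and 11.2 CPM after LPS. The groups did not overlap, and it rose by 3.52 (SE 0.41, adjusted p = 6.2e-06). *C5ar1*, the C5a receptor, was at 1.08, 0.724, 0.319 and 1.28 CPM in sham-vehicle mice and at 23.9, 22.2, 14.997, 18.4 and 14.8 CPM after LPS. This was the largest rise of the 8 members (4.47, SE 0.30, adjusted p = 1.52e-08), and the lowest LPS-vehicle mouse stood far above the highest sham-vehicle mouse. The second C5a receptor, *C5ar2*, was at 0.331 CPM in sham-vehicle and 0.278 CPM in LPS-vehicle mice, which gave a log2 difference of -0.11 (SE 0.84, adjusted p = 0.949).

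What MAGL inhibition changed under LPS is addressed by setting LPS-CPD-4645 against LPS-vehicle mice. Of the 8 members, 4 fell and 0 rose, by edgeR, where 4.19% of all genes tested fell and 1.7% rose. These were *C3*, *C5ar1*, *C1qc* and *C1qa*, at 0.317 to 0.486 times their LPS-vehicle level. *C1qb* and *C4b* were lower by less than 2-fold, and *C2* and *C3ar1* had the smallest differences. The LPS-CPD-4645 mice all lay below the LPS-vehicle mice for 4 members (*C1qa*, *C1qc*, *C4b* and *C5ar1*), as they did for 12% of all genes tested. The median log2 fold change was -0.98 over the members and -0.02 over all genes tested. Because the LPS-vehicle mice enter both comparisons, the changes are given side by side and not related to each other.

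**Figure D2:**
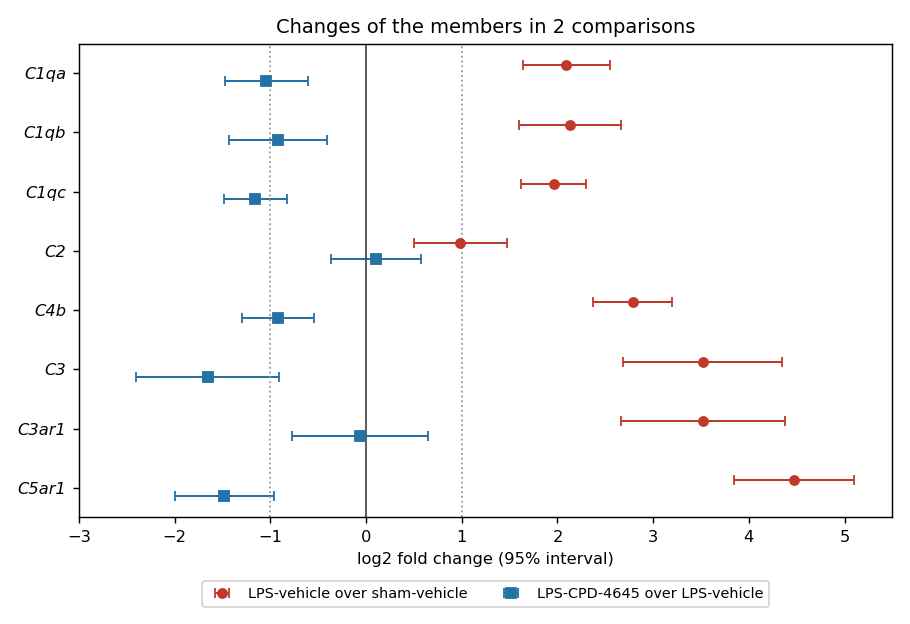
Log2 fold change (horizontal axis) of each tested member, with its 95% interval from the edgeR fit, for LPS-vehicle over sham-vehicle (circles) and LPS-CPD-4645 over LPS-vehicle (squares); dotted lines mark 2-fold. All circles are to the right of 0, and the squares of *C3ar1* (-0.07) and *C2* (0.10) are the ones whose intervals span 0.

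*C5ar1* was at 8.86, 5.42, 7.45 and 5.69 CPM in the LPS-CPD-4645 mice, so that the highest of these lay under the lowest LPS-vehicle mouse. It fell by 1.48 (SE 0.24) on the log2 scale (adjusted p = 0.000271), and the value stayed between -1.68 and -1.38 under every alternative run. *C3ar1* was at 15.8, 12.03, 19.8 and 7.85 CPM with CPD-4645, across the range of the LPS-vehicle mice. Its difference was -0.07 (SE 0.34, adjusted p = 0.902), with a 95% interval from -0.78 to 0.65, and its sign turned without LPS-CPD-4645 mouse 4 (0.15) or LPS-vehicle mouse 1 (0.11). The interval of *C3ar1* thus allows a level between 0.583 and 1.56 times that of LPS-vehicle mice, which does not show that it was the same.

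*C3* was at 5.85, 3.88, 2.71 and 2.39 CPM in the LPS-CPD-4645 mice. Mouse 1 of this group lay just above mouse 4 of the LPS-vehicle group, so the groups overlapped by 1 mouse on each side, and *C3* fell by 1.66 (SE 0.35, adjusted p = 0.00198). *C4b* was at 76.9, 67.9, 62.8 and 45.1 CPM, with every mouse below the LPS-vehicle mice. Its log2 fold change was -0.92 (SE 0.18, adjusted p = 0.00102), and it passed 2-fold without LPS-CPD-4645 mouse 1 (-1.01). *C2* was at 4.74, 4.55, 7.53 and 5.57 CPM, within and above the LPS-vehicle range, and its log2 difference was 0.10 (SE 0.22, adjusted p = 0.76, 95% interval -0.37 to 0.57). The sign of that small difference turned without LPS-CPD-4645 mouse 3 (-0.07).

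The C1q chains were all lower with CPD-4645, near the 2-fold line. *C1qc* was at 41.3, 32.7, 34.1 and 38.2 CPM, all below the LPS-vehicle mice, and fell by 1.16 (SE 0.16, adjusted p = 4.65e-05). *C1qa* was at 67.3, 61.0, 44.7 and 48.7 CPM, also without overlap, and fell by 1.04 (SE 0.21, adjusted p = 0.00111). That call was lost, by falling short of 2-fold, without LPS-CPD-4645 mouse 3 (-0.94) or 4 (-0.97), and without LPS-vehicle mouse 5 (-0.84) or 2. *C1qb* was at 53.4, 38.3, 30.5 and 32.9 CPM, with mouse 1 inside the LPS-vehicle range. Its log2 fold change was -0.92 (SE 0.24, adjusted p = 0.00798), and it passed 2-fold without LPS-CPD-4645 mouse 1 (-1.09), LPS-vehicle mouse 3 (-1.03) or LPS-vehicle mouse 4 (-1.02). Without the shallowest library of each LPS group, 6 of the 8 members fell, *C1qb* (-1.22) and *C4b* (-1.07) among them. That setting also lost calls, such as that of *C1qa* against sham-vehicle (0.95). Of other complement genes, it lost those of *C1s2* after LPS (1.37, adjusted p = 0.0842) and *C8g* with CPD-4645 (-0.76, adjusted p = 0.178). The setting was chosen after the totals were seen.

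Comparing LPS-CPD-4645 with sham-vehicle mice shows where the members stood with the inhibitor against unchallenged mice. Of the 8 members, 7 were higher past the threshold and 0 lower, by edgeR, where 6.11% of all genes tested were higher and 4.98% lower. All 8 were without overlap above the sham-vehicle mice, as were 18.7% of all genes tested. *C3ar1* stood highest (log2 fold change 3.46, SE 0.42, adjusted p = 5.57e-06), then *C5ar1* (2.99, SE 0.30, adjusted p = 8.07e-07). *C4b* (1.87, SE 0.20) and *C3* (1.86, SE 0.40) were next. *C1qb* was at 1.21 (SE 0.26), *C2* at 1.09 (SE 0.24) and *C1qa* at 1.05 (SE 0.22), and *C1qc* at 0.80 (SE 0.16, adjusted p = 0.000912) did not reach 2-fold. The *C2* call was lost without sham-vehicle mouse 2 (0.95) or LPS-CPD-4645 mouse 3 (0.92), and the *C1qa* call without sham-vehicle mouse 4 (0.93) or LPS-CPD-4645 mouse 1 (0.96) or 2 (just under 2-fold).

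Whether members of like role moved by unequal amounts was tested by the ratio of both within each mouse, which does not depend on how libraries are scaled. The log2 ratio of *C5ar1* to *C3ar1*, in counts per kb of exon, was 0.92, 1.16, 0.71, 1.89 and 1.15 in the LPS-vehicle mice and -0.09, -0.40, -0.66 and 0.28 in the LPS-CPD-4645 mice. The 2 groups did not overlap, and the means were 1.17 ± 0.44 (SD, n = 5) and -0.22 ± 0.41 (SD, n = 4). The difference of -1.39 had an exact two-sided permutation p of 0.0159, the smallest that 4 against 5 mice allow, and an adjusted p of 0.143 over the 9 ratio tests, so it did not pass the correction. In sham-vehicle mice the ratio was scattered (-0.17, 2.25, -1.40 and 0.92), where both receptors were near 1 CPM.

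**Figure D3:**
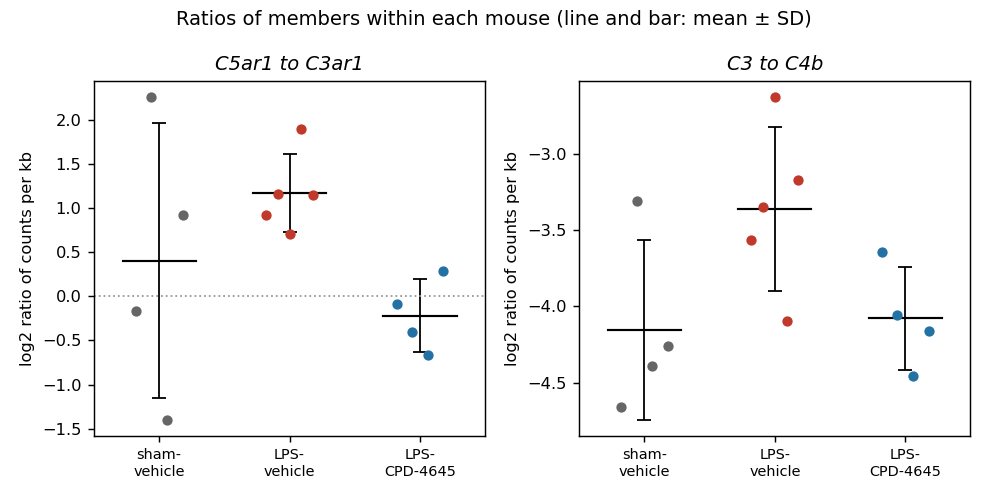
Log2 ratio of counts per kb of exon within each mouse (vertical axis), for *C5ar1* to *C3ar1* and *C3* to *C4b*, by group; lines and bars are means ± SD. The 5 LPS-vehicle mice lie at 0.71 to 1.89 for the receptors and the 4 LPS-CPD-4645 mice at -0.66 to 0.28.

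The log2 ratio of *C3* to *C4b* was -4.66, -3.31, -4.39 and -4.26 in sham-vehicle mice, -3.56, -3.35, -2.63, -4.10 and -3.17 in LPS-vehicle mice and -3.64, -4.06, -4.46 and -4.16 in LPS-CPD-4645 mice. The LPS-vehicle mice were the highest on average, and the groups overlapped in all 3 comparisons. The ratio was higher by 0.79 in LPS-vehicle than in sham-vehicle mice (exact permutation p = 0.0794, adjusted 0.238) and lower by 0.72 with CPD-4645 than in LPS-vehicle mice (exact permutation p = 0.0476, adjusted 0.214). Between LPS-CPD-4645 and sham-vehicle mice it differed by 0.08 (exact permutation p, adjusted, = 0.932). The ratio of *Cfb* to *C2* rests on the 0.5 counts added to libraries with no *Cfb* read and is not interpretable.

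Per kb of exon, the C1q chains were the most abundant members in every group. In sham-vehicle mice *C1qa* stood first at 25.6 ± 5.36 CPM per kb (SD, n = 4), above *C1qc* (17.4 ± 1.92) and *C1qb* (15.3 ± 3.92), the last pair differing by less than their spread. *C4b* followed at 3.18 ± 1.01, and *C5ar1* (0.332 ± 0.165), *C3ar1* (0.285 ± 0.176) and *C3* (0.193 ± 0.130) formed a low group whose neighbours did not differ beyond their spread. In LPS-vehicle mice the order was *C1qa* (109 ± 37.1, n = 5), *C1qc* (67.6 ± 17.4) and *C1qb* (66.6 ± 26.7), then *C4b* (22.1 ± 3.21), *C5ar1* (7.34 ± 1.60), *C3ar1* (3.37 ± 1.15) and *C3* (2.25 ± 0.764). *C5ar1* lay above *C3ar1* in 5 of 5 of these mice without overlap, whereas *C3ar1* and *C3* differed by less than the larger SD. In LPS-CPD-4645 mice *C3ar1* (3.22 ± 1.19, n = 4) and *C5ar1* (2.67 ± 0.626) did not differ beyond their spread, and *C3* was lower at 0.722 ± 0.305. *C2* and *Cfb* were left out of this order because of their shared exons, and *C4b* may be understated by its shared windows.

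The 3 C1q chains kept like proportions in all groups. *C1qa* made up 43.8% ± 1.41 (SD, n = 4) of their summed level per kb in sham-vehicle mice, 44.7% ± 1.32 (n = 5) in LPS-vehicle mice and 44.6% ± 2.59 (n = 4) in LPS-CPD-4645 mice. The shares of *C1qb* (25.9%, 27.1% and 29.6%) and *C1qc* (30.3%, 28.3% and 25.8%) moved the opposite way from group to group by less than the sum of their SDs. By likeness of pattern, the smallest root-mean-square difference of centred log2 CPM over the 13 mice, the gene nearest to *C1qa* among 14841 others of at least 1 CPM was *C1qb* (0.16), then *C1qc* (0.22) and *Apod* (0.25). For *C1qb* these were *C1qa*, *Apod* (0.28) and *Fam107a* (0.33), and for *C1qc* they were *C1qa*, *Cyba* (0.26) and *Anxa2* (0.28). *C4b* was nearest to *Tgm2* (0.22), *Ncf1* (0.23) and *Sult1a1* (0.27), and *C2* to *Gm4673* (0.23), *Cfap43* (0.25) and *Clic4* (0.25). Among the genes nearest to *C3* were *Matn1* (0.53) and *Adamts9* (0.54). *C3ar1* was nearest to *Birc3* (0.45), *Casp4* (0.47) and *Jaml* (0.57), and *C5ar1* to *Gpr84* (0.58), *Ms4a6d* (0.59) and *Cxcl16* (0.59). These likenesses are descriptions over the same 13 libraries and include the differences between groups.

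Markers of myeloid cells moved with the groups too. Of 14 microglia markers, all tested, 0 rose and 7 fell after LPS (median log2 fold change -0.95), among them *P2ry12* (26.9 to 2.58 CPM, -3.33) and *Trem2* (11.1 to 4.86 CPM, -1.15), while *Csf1r* (0.10) differed little. Their summed level was 299 to 407 CPM in sham-vehicle, 200 to 358 in LPS-vehicle and 173 to 228 in LPS-CPD-4645 mice, and none of them was at 0 in all libraries. The summed C1q chains ran the other way after LPS, from 47.8 to 75.4 CPM to 175 to 395 CPM, and stood at 109 to 162 CPM with CPD-4645. C1q per microglia marker RNA was thus 0.160 to 0.191 in sham-vehicle, 0.712 to 1.11 in LPS-vehicle and 0.577 to 0.712 in LPS-CPD-4645 mice, a ratio in which the numerator was higher and the denominator mostly lower in both LPS groups, so that it says nothing about the C1q level of a single cell. With CPD-4645 against LPS-vehicle, 2 of the 14 microglia markers fell and 1 rose (median -0.61). Of 8 perivascular macrophage markers, 7 were tested: 4 rose after LPS (median 1.66) and 2 fell with CPD-4645 (median -0.81). Only the 4 that rose had a log2 fold change above 0 after LPS, so the list did not move as a whole. Means of *Stab1* (7.69 to 24.2 CPM) and *Lyve1* (1.14 to 7.46 CPM) were higher after LPS. Those of *Mrc1* (2.39 to 1.65 CPM) and *Cbr2* (1.03 to 0.572 CPM) were lower. The sums of the list were 13.7 to 17.0, 31.0 to 53.7 and 14.95 to 24.7 CPM in the 3 groups in the same order. The part of microglia and perivascular macrophages in the C1q values was not tested.

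**Figure D4:**
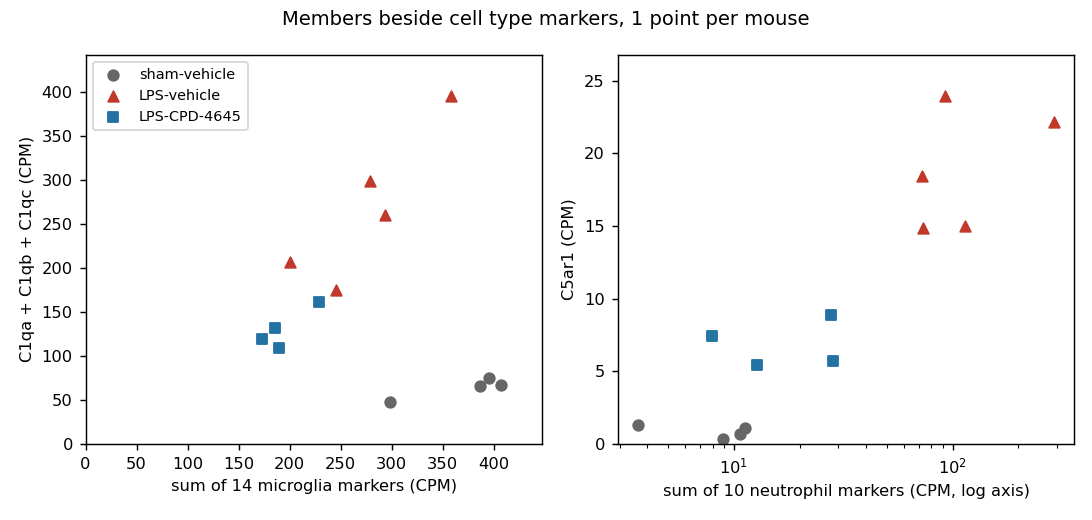
Each point is a mouse: summed C1q chains against 14 summed microglia markers (left) and *C5ar1* against 10 summed neutrophil markers on a log axis (right), all in CPM. C1q is higher in both LPS groups than in sham-vehicle mice, whose microglia markers are at 299 to 407 CPM, and the LPS-CPD-4645 mice (7.94 to 28.5 CPM of neutrophil markers) lie below the LPS-vehicle mice (72.6 to 290 CPM) on both axes of the right plot.

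Neutrophil markers, *S100a8* and *S100a9* among them, moved in the direction of *C5ar1*. Of the 10 listed, 9 were tested; 8 rose after LPS (median 4.89) and 9 fell with CPD-4645 (median -2.95), and none was at 0 in all libraries. Their summed level was 3.65 to 11.2 CPM in sham-vehicle, 72.6 to 290 in LPS-vehicle and 7.94 to 28.5 in LPS-CPD-4645 mice. Of 6 monocyte markers, 5 were tested. After LPS 5 rose (median 4.71) and with CPD-4645 3 fell (median -1.15), with sums of 2.72 to 7.70, 67.5 to 160 and 40.7 to 55.7 CPM. These sums were chiefly *Cd14*, which was at a mean of 80.0 CPM in LPS-vehicle mice, followed by *Ms4a6c* at 20.3 CPM. *Ly6c2* (3.27 CPM) and *Ccr2* (0.268 CPM) added little there. Mouse by mouse, the neutrophil marker sums were 92.3, 290, 115, 72.6 and 73.1 CPM in LPS-vehicle mice 1 to 5, beside *C5ar1* levels of 23.9, 22.2, 14.997, 18.4 and 14.8 CPM. In LPS-CPD-4645 mice 1 to 4 the sums were 27.7, 12.8, 7.94 and 28.5 CPM, beside *C5ar1* levels of 8.86, 5.42, 7.45 and 5.69 CPM. The part of these cells in the values of *C5ar1*, *C3ar1* and *C3* was not tested.

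Markers of glia and vessels, set beside *C4b* and *C3*, moved unequally between and within lists. Of 10 astrocyte markers, 2 rose and 0 fell after LPS (median 0.51), and 0 rose or fell with CPD-4645 against LPS-vehicle (median -0.12), by edgeR. Their summed level was 1720 to 2189 CPM in sham-vehicle, 2347 to 3066 in LPS-vehicle and 2209 to 2810 in LPS-CPD-4645 mice. *Gfap*, the filament protein of reactive astrocytes, rose from 95.2 to 504 CPM after LPS (2.40, SE 0.19, adjusted p = 6.66e-08) and was at 366 CPM with CPD-4645 (-0.46, SE 0.17, adjusted p = 0.0514). Of 10 endothelial markers, 7 had a log2 fold change above 0 after LPS (median 0.44), and 2 rose and 1 fell. With CPD-4645, 1 fell (median -0.52). Of all genes tested, 4.68% rose and 0.995% fell after LPS, and 4.19% fell with CPD-4645. The endothelial sums were 343 to 558, 390 to 755 and 397 to 530 CPM in the 3 groups, with medians of 472, 734 and 495 CPM. Means of *Ly6c1* (76.8 to 172 CPM) and *Cldn5* (107 to 169 CPM) were higher after LPS. Those of *Slco1c1* (65.9 to 23.5 CPM) and *Kdr* (16.7 to 9.69 CPM) were lower. Of 9 pericyte and smooth muscle markers, 0 rose and 3 fell after LPS (median -0.007), and 1 fell with CPD-4645 (median -0.02). Of 8 oligodendrocyte markers, 1 rose and 2 fell after LPS (median -0.71), and 1 fell with CPD-4645 (median 0.09). None of these markers was at 0 in all libraries, and their part in the values of *C4b* and *C3* was not tested.

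The rest of the pathway was described from a list of 45 other complement genes, of which 27 were tested. Of the other 18, 3 were at 0 in all libraries and the highest count of any was 21. They included the terminal components *C6*, *C8a*, *C8b* and *C9* and the lectins *Mbl1* and *Mbl2*. *C8b* had 7 to 17 counts in LPS-CPD-4645 mice, against 0 to 1 in sham-vehicle and 0 to 3 in LPS-vehicle mice, and was not tested. After LPS, 8 of the 27 rose and 0 fell (median log2 fold change 0.31), where 4.68% of all genes tested rose and 0.995% fell. With CPD-4645 against LPS-vehicle, 3 fell and 1 rose (median -0.27), where 4.19% of all genes fell and 1.7% rose, so the single rise is near the background. Against sham-vehicle, 5 were higher and 0 lower (median 0.16), where 6.11% of all genes were higher and 4.98% lower.

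**Figure D5:**
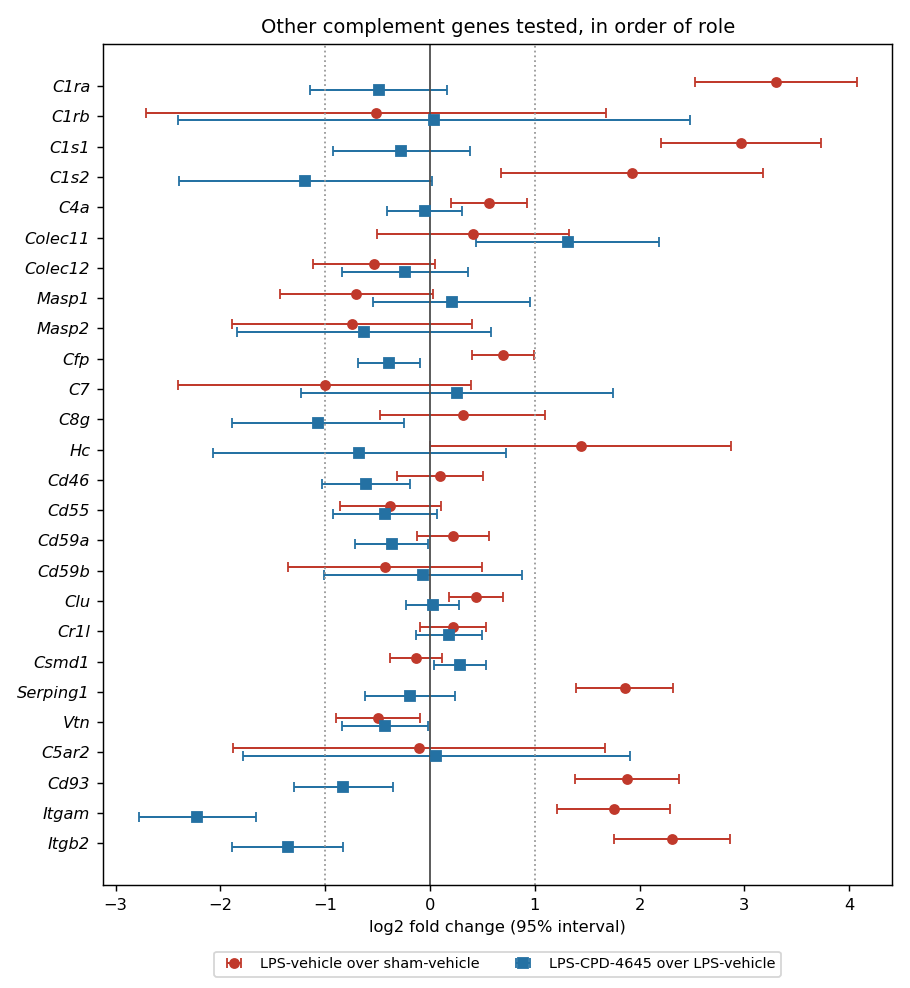
Log2 fold change (horizontal axis) with 95% interval of other complement genes tested, in order of role, for LPS-vehicle over sham-vehicle (circles) and LPS-CPD-4645 over LPS-vehicle (squares); dotted lines mark 2-fold. *C1ra* (3.30) and *C1s1* (2.97) stand furthest right after LPS, and *Itgam* (-2.22) furthest left with CPD-4645.

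Of the 9 initiation genes tested, 3 rose after LPS. *C1ra* and *C1s1*, which encode the proteases that C1q carries, rose by 3.30 (SE 0.37) and 2.97 (SE 0.36) on the log2 scale, from 0.737 to 7.37 CPM and from 0.798 to 6.32 CPM. With CPD-4645 they stood at 5.24 and 5.15 CPM, with log2 fold changes of -0.49 (SE 0.31, adjusted p = 0.25) and -0.27 (SE 0.31, adjusted p = 0.536) against LPS-vehicle, where the C1q chains had values of -0.92 to -1.16. Whether proteases and chains differed was not tested. *C1s2* (1.93, SE 0.59, adjusted p = 0.0282) rose from 0.269 CPM and lost its call with limma-voom (1.48, adjusted p = 0.063), without LPS-vehicle mouse 3 (1.37, adjusted p = 0.068) and without sham-vehicle mouse 2, 3 or 4 (1.76 to 1.90, adjusted p = 0.0607 to 0.092). Of the 75-base windows, *C1ra* shares 40.1% with its copy *C1rb* and *C1s1* shares 14.7% with *C1s2*, so these levels are uncertain. *Colec11*, a lectin of the lectin pathway, was at 0.820 CPM in sham-vehicle and 1.13 CPM in LPS-vehicle mice and rose with CPD-4645 to 2.72 CPM (1.31, SE 0.42, adjusted p = 0.0232), a call lost without LPS-CPD-4645 mouse 3 (0.84, adjusted p = 0.155). *C4a*, the copy of *C4b*, differed by 0.57 (SE 0.17, adjusted p = 0.0268) after LPS and by -0.05 (SE 0.17, adjusted p = 0.844) with CPD-4645.

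Of the 10 regulators tested, 2 rose after LPS and 0 fell with CPD-4645. *Serping1*, which encodes the C1 inhibitor, rose from 8.34 to 30.3 CPM (1.86, SE 0.22, adjusted p = 7.38e-06) and was at 26.8 CPM with CPD-4645 (-0.19, SE 0.21, adjusted p = 0.513). By the mean over all 13 mice, the most abundant per kb were *Clu* (378 CPM per kb), *Vtn* (44.5) and *Cd59a* (14.5), which encode clusterin, vitronectin and CD59, inhibitors of the membrane attack complex. The last place depended on the group, since *Serping1* was at 13.3 and *Cd59a* at 12.6 CPM per kb in LPS-CPD-4645 mice. *Clu*, *Vtn* and *Cd59a* did not pass 2-fold in any comparison; *Clu* differed by 0.44 (SE 0.12, adjusted p = 0.0153) after LPS, and *Vtn* by -0.92 (SE 0.21, adjusted p = 0.0018) between LPS-CPD-4645 and sham-vehicle mice.

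Of the 4 other receptor genes tested, 3 rose after LPS. *Itgam* and *Itgb2*, the chains of complement receptor 3, rose by 1.75 (SE 0.26) and 2.31 (SE 0.26), from 9.14 to 30.9 CPM and from 3.36 to 16.6 CPM. Both fell with CPD-4645, *Itgam* by 2.22 (SE 0.27, adjusted p = 1.78e-05) to 6.79 CPM and *Itgb2* by 1.36 (SE 0.25, adjusted p = 0.000701) to 6.64 CPM. *Cd93*, first described as a C1q receptor and carried by endothelial and myeloid cells, rose from 10.4 to 38.2 CPM after LPS (1.88, SE 0.23) and was at 21.8 CPM with CPD-4645 (-0.83, SE 0.23, adjusted p = 0.00991). Of the 3 terminal components tested, *C8g* was lower with CPD-4645 (2.25 to 1.02 CPM, -1.07, SE 0.39, adjusted p = 0.0464), a call that limma-voom did not give (adjusted p = 0.061) and that was lost when any of 9 single mice was left out, such as LPS-CPD-4645 mouse 2 (-0.91, adjusted p = 0.136).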

How the data were processed

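Per the labels and the study's methods, vessels were isolated from frozen, unperfused brains, and stranded poly(A) libraries were read as 75-base single ends. The submitters' processing notes name bcl2fastq 2.15.0.4 and STAR 2.5.2a with mm10. The authors counted reads per gene with STAR on GENCODE M9 basic and deposited these whole-number counts without normalization, 1 column per mouse. Which strand column was kept is not given in the sources used here.

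Symbols, positions and exon lengths came from GENCODE M21 on the same build, which matched 47224 of 47643 identifiers. Genes were kept by filterByExpr (minimum count 10, minimum total 15), normalized by TMM and fitted for all 13 mice with edgeR 4.0.16 (R 4.3.3, group only), with Benjamini-Hochberg adjustment over 17285 genes. On simulated counts of the same libraries the fit was tested before use. CPM use TMM-scaled totals, log2 CPM a prior count of 2, and ratios (count + 0.5) per kb. Ratios were tested with exact permutation tests (scipy 1.17.1); matplotlib 3.10.9 drew the figures. Alternatives were limma-voom (limma 3.58.1), which is the study's test, DESeq2 1.42.0, its size factors, no filter, only the groups compared, a replicate block, each mouse left out, other pseudocounts and transcript lengths. Total counts per library, 7813559 to 55133373, limit mainly genes of few counts. Each library is 1 mouse.

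The members and gene lists were chosen with earlier results of these data known. Named were the members, other complement genes past the threshold or of the 3 highest levels per kb, the 3 genes of nearest pattern to each member, and listed markers. Genes outside this rule (*C5ar2*, *C4a*, *C1rb*, *Masp1* and untested genes) were named after their values were seen. Some genes that this rule names are not reported here.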

Additional observations from a re-analysis of the deposited data

How the results depend on the processing

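Members past the threshold numbered 7 after LPS (7 to 8 with each mouse left out), 4 with CPD-4645 against LPS-vehicle (3 to 6) and 7 against sham-vehicle (6 to 7). For other complement genes the counts were 8 (7 to 9), 4 (3 to 5) and 5 (5 to 8), the last reaching 8 without sham-vehicle mouse 1, LPS-CPD-4645 mouse 3 or LPS-CPD-4645 mouse 4. limma-voom, DESeq2, its size factors, no filter and fits of only the groups compared left 4 members lower with CPD-4645.

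The deviations of same-numbered mice had correlations from -0.03 to 0.11 over 12 pairs of mice, and pairs of unlike number reached -0.137 and 0.124. The numbers thus gave no sign of pairing, which groups of 4 or 5 mice cannot exclude. With the replicate block, the members past the threshold were 8, 3 and 7, since *C2* passed after LPS (1.09) and *C1qa* did not pass with CPD-4645 (-0.82), and the difference of *C2* with CPD-4645 turned to -0.007. For other complement genes the counts under the block were 8, 3 and 5, as *C1s2* lost its call after LPS (1.88, adjusted p = 0.0744), *Masp1* gained one in the lower direction (-1.12, adjusted p = 0.0233) and the call was lost for *Colec11* with CPD-4645 (0.90, adjusted p = 0.0643).

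Differences near 0 changed sign. With CPD-4645 against LPS-vehicle and each mouse left out, *C2* ran from -0.068 (without LPS-CPD-4645 mouse 3) to 0.195, and *C3ar1* from -0.287 to 0.146 (without LPS-CPD-4645 mouse 4), with 0.113 without LPS-vehicle mouse 1. With each mouse left out, the log2 ratio of *C3* to *C4b* between LPS-CPD-4645 and sham-vehicle mice ran from -0.093 to 0.36. That of *Cfb* to *C2* ran from -0.076 to 1.35 after LPS and from -1.21 to 0.30 between LPS-CPD-4645 and sham-vehicle mice, and was -0.044 for the first with a pseudocount of 2 and 0.36 for the second with a pseudocount of 0.1, because *Cfb* had almost no counts. The other ratios kept their direction, and none passed the correction. Levels per kb moved by less than 1 SD with the longest transcript as length.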
